A study of Mus musculus with 6 samples.

Results

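Hyaluronan is a long, unsulfated polysaccharide of the extracellular matrix. Enzymes of the Has family build it at the plasma membrane from sugar nucleotides, Cemip and the hyaluronidases Hyal1 and Hyal2 take part in its breakdown, and Cd44, Hmmr, Lyve1 and the proteoglycan Vcan bind it. In mammary tumours it is known as a component of the stroma and of the coat around cells, and Cd44 is widely used as a marker of subsets of tumour cells.

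The genes described here are 10 that make, break down or bind hyaluronan (Cemip, Has1, Has2, Has3, Hyal1, Hyal2, Cd44, Hmmr, Vcan and Lyve1), taken with every probe annotated to their symbols. A probe was found for 9 of the 10, with 27 probes in all, out of 19057 genes and 34883 probes with a single gene symbol. No probe was named Has3, which was not analysed here. The members were chosen by their function around the low signal of Cemip in the knockout tumours, so the measured values of this same contrast went into the choice. The values of Cemip are therefore given as a description with no test, and the adjusted p-values of the other genes are descriptions too, not independent evidence.

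The samples were 6 breast tumours of FVB mice. All 6 carried floxed alleles of Cyp27b1, the gene of the enzyme that makes active vitamin D. The 3 control tumours had the genotype Cyp27b1 flox/flox;Cre- and the 3 knockout tumours Cyp27b1 flox/flox;Cre+, so an effect of Cre and one of losing Cyp27b1 cannot be told apart. The series title places the deletion in mammary epithelium. The sources used here do not give the promoter that drives Cre, the age of the mice or how the tumours arose. No label ties a tumour to an animal, so p-values measure only the spread between these samples, which may be technical.

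Each tumour was measured on 1 Illumina bead array. Between 33.4% and 36.1% of probes were above background on an array, meaning a detection p below 0.05. Signals were normalized to a log2 scale on which the lowest probe above background lay between 4.90 and 5.0, so values near 5 are close to the floor. The probe of Cyp27b1 was not above background in any tumour and checks nothing about the deletion. The keratins Krt8, Krt18 and Krt14 were above background on all 6 arrays. Differences are knockout minus control on the log2 scale, with limma's standard error (SE).

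Markers of several cell types differed between the same tumours. All 8 fibroblast markers listed were measured. Of these 4 fell and 0 rose, with 4 not passing (median log2 difference -2.48, against 0.05 over the 9354 named genes). Of those named genes limma called 4.47% higher and 5.63% lower at an adjusted p below 0.05. The summed normalized signal of the fibroblast markers ran from 7075 to 19261 in the control and from 351 to 2932 in the knockout tumours. Of 6 measured luminal markers 3 rose and 0 fell, with a median log2 difference of 1.43 and sums of 2395 to 6218 in the control and 5460 to 10656 in the knockout tumours. Of 4 basal markers 1 rose and 0 fell, with a median log2 difference of 0.75. Their sums ran from 4742 to 11405 in the control and from 13221 to 20183 in the knockout tumours. The marker that rose, Krt14 (1.39), was the brightest of the 4 and so weighs most in these sums. Krt5, Krt17 and Trp63 gave -0.11, 0.12 and 1.55 and did not pass (limma adjusted p = 0.94, 0.92 and 0.33). Epcam did not reach the filter. In bulk tumours fewer cells of a type and less RNA per cell cannot be told apart, and the part these lists have in the results below was not tested.

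**Figure D1:**
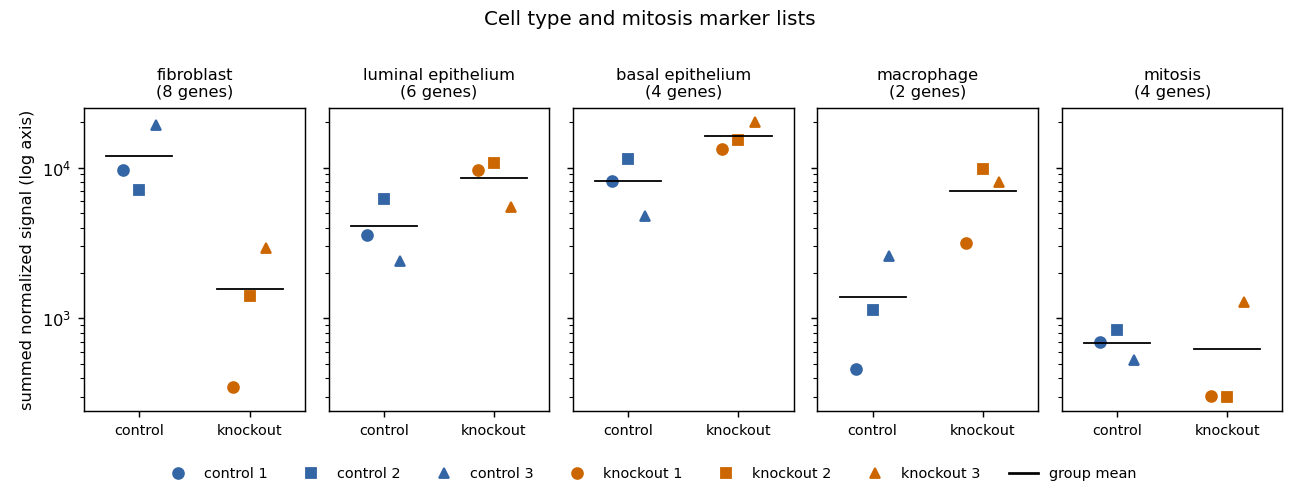
Summed normalized signal (log axis) of marker lists in each tumour, with 1 point per tumour and a line at the group mean. The fibroblast sums of the knockout tumours (351 to 2932) all lie below those of the control tumours (7075 to 19261), while the mitosis sums overlap.

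Among the members with an entry in RefSeq's promoter table for GRCm38.p6, which holds 7 of the 10 genes, the windows of Cemip and Cd44 are shown because these genes had the lowest and the most divided probes. Each window runs from 250 bases before to 50 bases after the gene's start, 5′ to 3′ on the gene's strand. The Cemip window is chr7:84086456-84086755, minus strand, and that of Cd44 is chr2:102901616-102901915, minus strand. Capitals mark a match to a searched motif.
Cemip: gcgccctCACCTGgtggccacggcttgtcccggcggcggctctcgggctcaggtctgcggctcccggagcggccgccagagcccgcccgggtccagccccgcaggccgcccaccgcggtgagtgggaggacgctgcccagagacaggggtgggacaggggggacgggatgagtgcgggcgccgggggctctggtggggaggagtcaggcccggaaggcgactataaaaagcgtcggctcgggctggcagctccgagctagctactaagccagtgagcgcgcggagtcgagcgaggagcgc
Cd44: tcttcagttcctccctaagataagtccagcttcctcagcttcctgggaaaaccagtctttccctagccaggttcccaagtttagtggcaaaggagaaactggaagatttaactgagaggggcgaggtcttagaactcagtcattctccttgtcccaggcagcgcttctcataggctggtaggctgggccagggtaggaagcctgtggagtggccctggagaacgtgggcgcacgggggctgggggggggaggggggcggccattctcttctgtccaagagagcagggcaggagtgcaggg

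The search covered both strands for the AP-1 site TGANTCA, the NF-kB site, the E-box CACCTG of the Zeb and Snai repressors and 4 nuclear receptor half-sites. The half-sites were AGGTCA and the variant AGTTCA, together with the pair that begins with G, which was GGGTCA in one case and GGTTCA in the other. No overlap between matches occurred in these windows. The Cemip window held 1 E-box, at position -243 from the start, a motif present in 20.2% of 32851 promoters of the same length. The Has1 window held 1 AGGTCA half-site on the opposite strand at position -113, and any of the 4 half-sites was present in 43.7% of promoters. The windows of Hyal1, Hyal2, Cd44, Hmmr and Vcan held none of these letters. The Cemip window was 73.7% G and C and the others 50.7% to 61.0%, where the median over all promoters was 52.7%. A match is a description of the letters only.

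Cemip, a hyaluronan-binding protein that drives depolymerisation of hyaluronan outside the cell, had 3 probes of very different brightness. The probe annotated to a GenBank cDNA (ILMN_1245549) gave deposited signals of 4496, 2335 and 5773 in control tumours 1, 2 and 3. In knockout tumours 1, 2 and 3 its signals were 124, 117 and 175. Every knockout tumour thus lay far below every control tumour, and the probe was above background on all 6 arrays. Normalized log2 values were 11.94, 11.10 and 12.75 in the control and 5.04, 4.95 and 6.37 in the knockout tumours. The log2 difference of -6.48 (SE 0.50) was the most negative of the 15885 kept probes, that is of probes above background on at least 3 arrays. The 2 knockout tumours lowest for this probe lay at the floor, so the size of the difference depends on how background is handled. It was -4.35 with the authors' values and -4.90 without background correction.

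The probe annotated to the RefSeq transcript of Cemip (ILMN_1216436) was much dimmer. Its log2 values were 6.30, 5.26 and 6.96 in the control tumours. In the knockout tumours they were 4.32, 4.83 and 4.39, none of them above background. The mean of the 3 control log2 values was 2.40-fold above the floor of the knockout arrays. For this, each knockout value was raised to its array's floor where it lay below it. This is no lower limit, since control 2 lay at 5.26, near the floor. The probe passed the filter through the control tumours alone. The measured means were 6.17 ± 0.86 and 4.51 ± 0.28 (SD, n = 3 each), a log2 difference of -1.66, or -0.43 with the authors' values. The third probe (ILMN_2564128), annotated to another cDNA, was above background in control 3 alone, at 5.61. Its other values ran from 4.41 to 4.72. All 3 probes were highest in control 3. The sources used here do not place these probes within the transcripts.

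**Figure D2:**
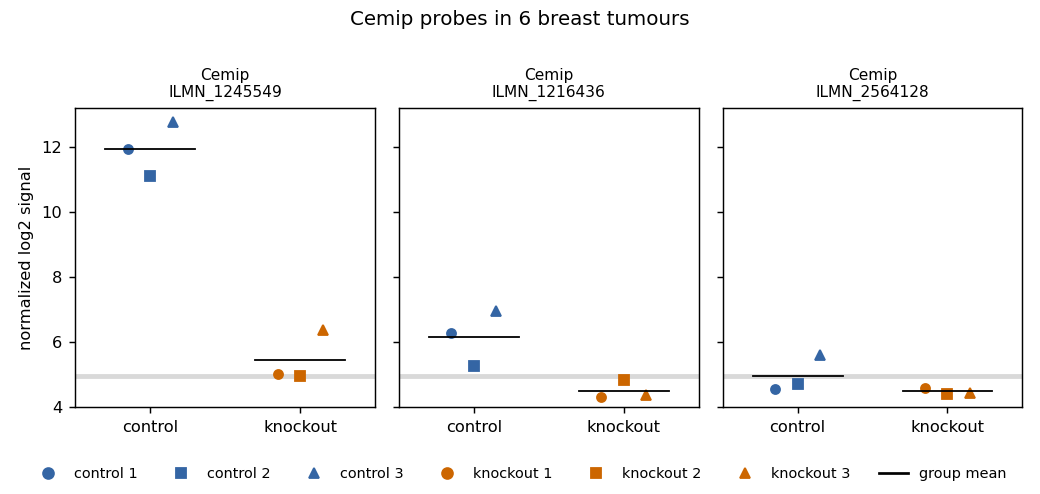
Normalized log2 signal of the 3 Cemip probes in each tumour, with a line at the group mean and a grey band at the floor (4.90 to 5.0). The brightest probe separates control tumours (11.10 to 12.75) from knockout tumours (4.95 to 6.37), and the third probe lies near the floor in 5 of 6 tumours.

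The brightest Cemip probe had standard deviations of 0.83 among control and 0.80 among knockout tumours. The knockout value is limited by the floor, at which knockout 1 and 2 lay, so the spreads cannot be compared. Control 3 was the highest and control 2 the lowest of the control tumours. The fibroblast sums had the same order, at 9620, 7075 and 19261 in control tumours 1, 2 and 3. Col1a1 and Dcn were the brightest of these markers in the control tumours and weigh most in the sums there. Col1a1, Col1a2, Col6a1, Pdgfra, Dcn and Lum each had this order. Pdgfrb (8.19, 7.17 and 7.84) and Col3a1 (6.54, 6.56 and 6.55) did not. In the knockout tumours, Cemip was highest in knockout 3. At the floor, the values of knockout 1 and 2 (5.04 and 4.95) may not show a difference between them. The fibroblast sums of knockout 1, 2 and 3 were 351, 1403 and 2932. The same order of control tumours was found at 18.4% of kept probes, knockout 3 was the highest knockout tumour at 30.7%, and both held at 5.82%. Neither order is thus particular to Cemip or to the genes below that share it.

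The 5 genes whose log2 values, centred on their mean over the 6 tumours, lay nearest to those of the brightest Cemip probe were Tagln, Hoxc6, Plac8, Cxcl14 and Fhl1. The measure was the root mean square distance over the 6 tumours, which was 0.98, 1.16, 1.23, 1.23 and 1.29 log2 units in that order. This distance includes the difference between the groups, so genes with a large fall lie near Cemip by construction. The log2 differences of the 5 genes were -4.93, -4.29, -4.24, -4.02 and -4.52. Tagln encodes a cytoskeletal protein that binds actin, Hoxc6 a homeobox transcription factor, and Cxcl14 a chemokine. Tagln lay at 10.97, 10.69 and 10.37 in the control and at 5.22, 5.07 and 6.97 in the knockout tumours. Like Cemip, it was highest in knockout 3 among knockout tumours, but its order among control tumours was another.

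Has2, the hyaluronan synthase that makes very long chains, fell in the knockout tumours. Its only probe (ILMN_1254975) lay at 8.42, 9.21 and 9.35 in control tumours 1, 2 and 3 and at 5.83, 6.21 and 7.23 in knockout tumours 1, 2 and 3. The groups did not overlap, and knockout 3 was again the highest of its group. The log2 difference was -2.57 (SE 0.40, 95% interval -3.50 to -1.64, limma adjusted p = 0.0099), and -1.39 with the authors' values. Of all the alternatives, the call was lost only when no filter on dim probes was used (adjusted p = 0.051, range over the alternatives 0.0046 to 0.051).

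Has1, another synthase, stayed near the floor. Its kept probe (ILMN_2997282) lay at 5.41, 5.10 and 4.93 in the control and at 5.17, 4.32 and 4.72 in the knockout tumours, above background in 2 control tumours and 1 knockout tumour. The groups overlapped, and the difference of -0.41 (SE 0.27, limma adjusted p = 0.40) did not pass. Its 95% interval ran from -1.03 to 0.20, and a fall from values so near the floor could not be measured. The second Has1 probe was below background on all 6 arrays.

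The hyaluronidases gave values in both directions, and neither passed the test. Hyal2, a hyaluronidase anchored at the cell surface, lay at 10.81, 10.63 and 10.40 in the control and at 11.29, 10.98 and 10.99 in the knockout tumours. The groups did not overlap, with a log2 difference of 0.47 (SE 0.20, 95% interval -0.0037 to 0.95, limma adjusted p = 0.21). Hyal1, the lysosomal hyaluronidase, lay at 7.09, 8.04 and 7.61 in the control and at 8.08, 6.92 and 6.98 in the knockout tumours by its kept probe (ILMN_2644375). Knockout 1 was the highest of all tumours and the groups overlapped, with a difference of -0.25 (95% interval -1.12 to 0.61, limma adjusted p = 0.75), or -0.63 without knockout 1. Its other probe was not above background on any array.

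Cd44, the main cell surface receptor of hyaluronan, which is spliced into many isoforms, had 9 probes that did not move alike. The brightest (ILMN_1223697) lay at 11.38, 11.70 and 11.42 in the control and at 9.94, 11.17 and 11.02 in the knockout tumours. The second (ILMN_3114585) lay at 10.09, 10.33 and 10.10 in the control and at 9.09, 9.41 and 9.08 in the knockout tumours. Both were lower in every knockout tumour than in any control tumour. The second probe fell, by a log2 difference of -0.98 (SE 0.20, limma adjusted p = 0.023), while the first gave -0.79 (SE 0.33, limma adjusted p = 0.19), or -0.40 without knockout 1. The call of the second probe was lost without control 1 (limma adjusted p = 0.074), control 2 (0.063), control 3 (0.058), knockout 2 (0.051) or knockout 3 (0.066). Its log2 difference stayed between -1.09 and -0.90 in these fits, and its adjusted p ranged from 0.011 to 0.074 over all alternatives.

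The other 4 kept Cd44 probes had positive differences, none of which passed. The brightest of them (ILMN_2640330) lay at 6.90, 7.91 and 6.34 in the control and at 7.14, 8.49 and 7.93 in the knockout tumours. Its groups overlapped, with a difference of 0.80 (SE 0.47, limma adjusted p = 0.34). The probes ILMN_2754990, ILMN_2730266 and ILMN_2697830 gave 0.44, 0.39 and 0.70 (limma adjusted p = 0.55, 0.57 and 0.35). In all 4, knockout 2 was the highest tumour. Of the 3 probes outside the filter, 2 were not above background on any array and 1 was above it in a single knockout tumour.

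The bright and dim Cd44 probes were also compared within each array. The log2 difference of ILMN_2640330 from ILMN_3114585, set to a mean of 0 over the control tumours, lay at -0.06, 0.71 and -0.64 in the control tumours. In the knockout tumours it lay at 1.16, 2.20 and 1.98, above all control values. For all 8 pairs of 1 of the 4 dimmer and 1 of the 2 brighter kept probes the groups did not overlap, and the shift ran from 1.18 to 1.78 log2 units. With the authors' values, an alternative added after seeing the data, the groups again did not overlap in 8 of 8 pairs, and the shift ran from 0.85 to 1.23. In 2 of the pairs the dimmer probe was ILMN_2697830, above background in 1 control and 2 knockout tumours, so these shifts rest partly on the floor. The 2 brighter probes were also those with negative differences and the 4 dimmer those with positive ones, so the direction of these shifts was fixed in advance. That choice also favours a lack of overlap. Of single kept probes 30.2% did not overlap, and no share over pairs of other probes is given here. The 8 pairs reuse the same 6 probes and are not separate observations. The shifts describe unequal differences of probes chosen after their values were seen, and are given with no test. The probe annotation assigns all 6 to the same Cd44 transcript, and the sources used here do not name their exons.

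**Figure D3:**
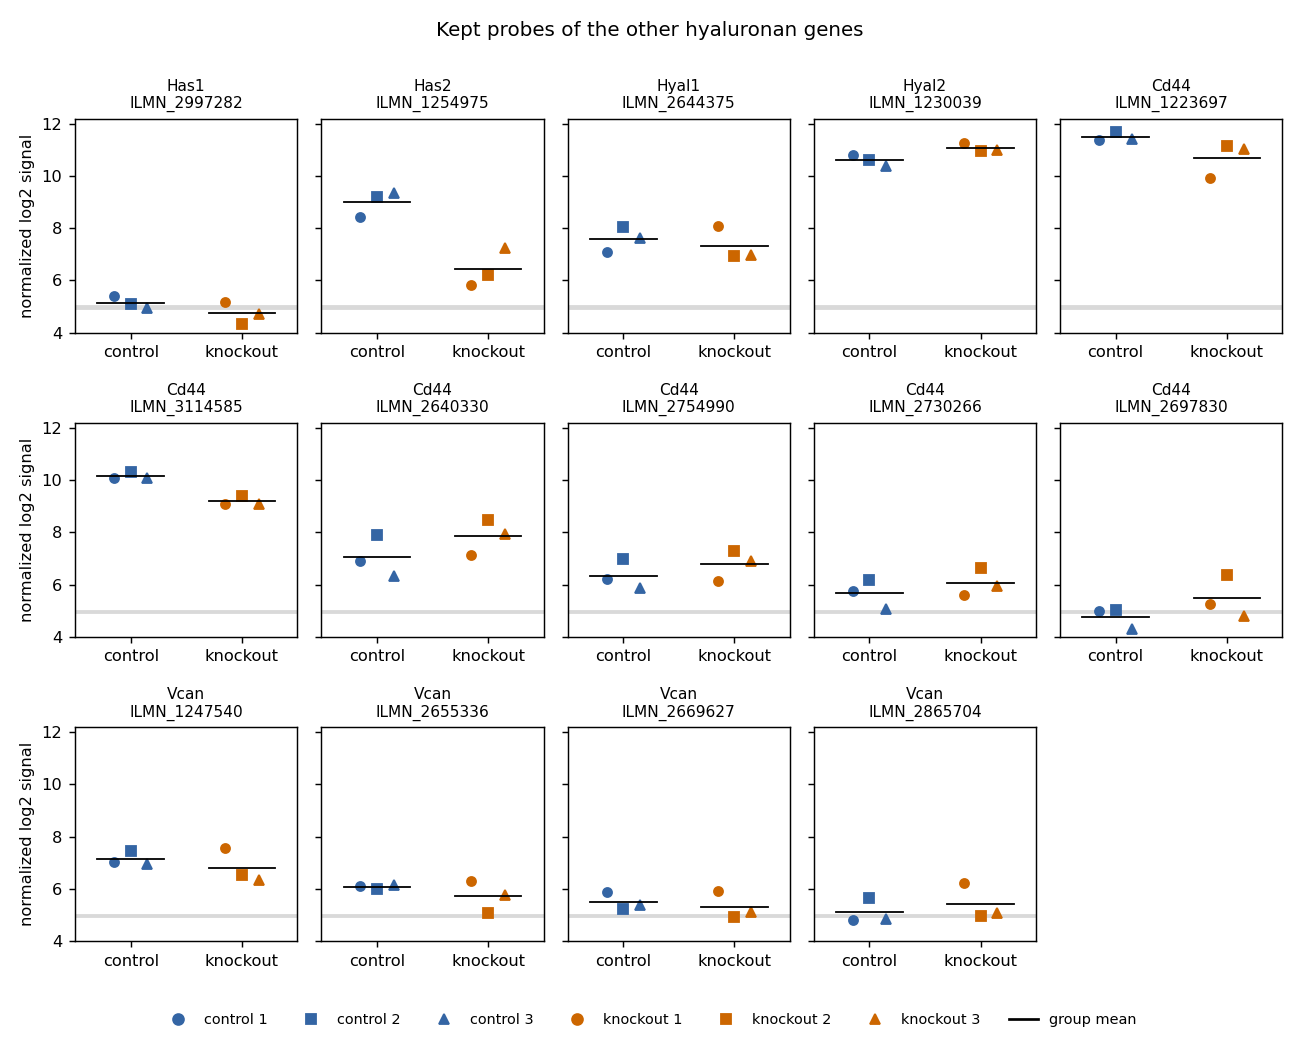
Normalized log2 signal of the 14 kept probes of Has1, Has2, Hyal1, Hyal2, Cd44 and Vcan in each tumour, with a line at the group mean and a grey band at the floor. Has2 and the first 2 Cd44 probes are lower in all knockout tumours, and knockout 1 is the highest tumour for all 4 Vcan probes.

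Vcan, a large proteoglycan that binds hyaluronan through its N-terminal part, showed no difference that passed. Its brightest probe (ILMN_1247540) lay at 7.01, 7.44 and 6.96 in the control and at 7.56, 6.54 and 6.33 in the knockout tumours. Knockout 1 was the highest tumour and knockout 2 and 3 the lowest, so the groups overlapped. The difference was -0.33 (SE 0.34, limma adjusted p = 0.62), and -0.70 without knockout 1 (limma adjusted p = 0.12, range over the alternatives 0.12 to 0.93). The probes ILMN_2655336, ILMN_2669627 and ILMN_2865704 gave -0.38, -0.18 and 0.33 (limma adjusted p = 0.52, 0.78 and 0.67). Knockout 1 was the highest of all tumours for all 4 kept probes, though for ILMN_2669627 only narrowly, at 5.90 against 5.87 in control 1. The 4 probes belong to 1 gene and are not separate observations, and no share over all kept probes is given here. Knockout 1 was also the highest tumour for Hyal1, Adamts1 and Ugp2, so this is not particular to Vcan. Knockout 1 had the lowest fibroblast sum of all, at 351, and the part of fibroblasts in the Vcan values was not tested. The other 2 Vcan probes were not above background on any array.

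Hmmr, which binds hyaluronan and is known for its role at the mitotic spindle, and Lyve1, the hyaluronan receptor of lymphatic vessels, were not above background on any array. The 2 Hmmr probes had values of 4.22 to 4.77 and the Lyve1 probe of 4.37 to 4.69, all under the floor. Of the 5 mitosis markers with a named probe, Bub1 was below background on all 6 arrays, as Hmmr was. The other 4, Top2a, Cdk1, Aurka and Plk1, were measured, and limma called 0 of the 4 and 0 passed an unadjusted p of 0.05. Their summed signal ran from 524 to 841 in the control and from 298 to 1274 in the knockout tumours, and their part in the Hmmr values was not tested. Of the lymphatic markers Prox1 was not above background on any array, Flt4, Ccl21a and Reln were not measured, and the 1 measured marker, Pdpn, which fibroblasts can also express, fell (log2 difference -2.85, limma adjusted p = 0.038). Its part in the Lyve1 values was not tested.

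Counted together, 16 of the 27 probes passed the filter and 9 were not above background on any array. Of the 14 kept probes other than those of Cemip, 2 were called lower, which is 14.3%, and none higher. Over all kept probes 9.20% were called in either direction, 4.14% higher and 5.06% lower. The groups did not overlap at 4 of the 14 (28.6%), where 30.2% of all kept probes did not overlap. Nothing is read from these shares, since the list was chosen with this contrast known and probes of 1 gene share their transcripts. The median log2 difference of the 14 was -0.22, against 0.05 over all kept probes. Without control 1 the call was made at 476 of all kept probes in place of 1461, without control 3 at 741 and without knockout 2 at 568.

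**Figure D4:**
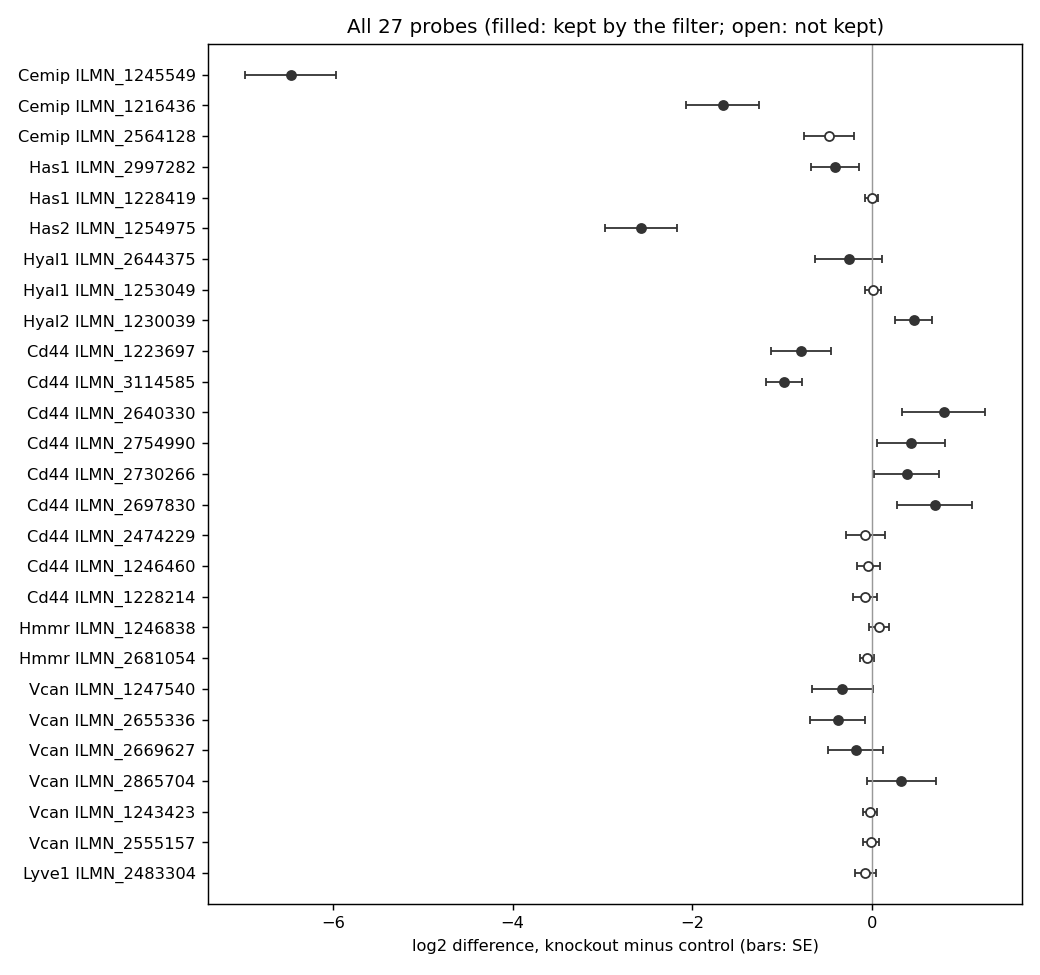
Log2 difference, knockout minus control, of all 27 probes with SE bars. Filled points passed the filter on dim probes. The brightest Cemip probe (-6.48) and Has2 (-2.57) lie farthest below 0, and the Cd44 probes lie on both sides of it.

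The other genes of hyaluronan supply, breakdown and binding were taken from 6 lists with 46 genes, of which 42 had a named probe and 19 a kept one. By the brightest kept probe of each gene, 1 rose, 3 fell and 15 did not pass. This is 21.1%, where 10.1% of all 9354 named genes were called in either direction, 4.47% higher and 5.63% lower. The groups did not overlap for 6 of the 19, where 32.1% of the named genes did not overlap. Layn, among the 6, passed the filter through the control tumours alone. The median log2 difference of the 19 was -0.21, against 0.05 over the named genes. The called genes were Gfpt2, Hexa, Stab1 and Tlr2. The count was 2 without control 1, control 3 or knockout 2, and also 2 with no filter. Nothing is read from these shares, since the lists were chosen with earlier results of these data known.

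Gfpt2, which makes glucosamine 6-phosphate for the building block UDP-N-acetylglucosamine, fell. It lay at 9.20, 8.73 and 8.72 in the control and at 5.12, 5.84 and 6.05 in the knockout tumours, with no overlap. The log2 difference was -3.22 (SE 0.29, limma adjusted p = 0.0031), and -1.54 with the authors' values. Its relative Gfpt1 gave -0.33 (limma adjusted p = 0.51), and the other measured genes of sugar nucleotide supply, Ugp2, Pgm3 and Uap1, did not pass. Ugdh, which makes UDP-glucuronic acid, was not above background on any array.

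Among the other breakdown enzymes, Hexa, a subunit of the lysosomal beta-hexosaminidase, fell by 1.23 on the log2 scale (SE 0.26, limma adjusted p = 0.025). It lay at 9.51, 8.75 and 9.29 in the control and at 7.97, 7.70 and 8.20 in the knockout tumours. The call was lost without control 1 (limma adjusted p = 0.099), control 3 (0.080) or knockout 2 (0.096), and with no filter (0.070), range over the alternatives 0.016 to 0.099. Cemip2, a relative of Cemip that breaks down hyaluronan at the surface of mouse cells, did not pass. Its brightest probe lay at 9.69, 9.86 and 9.48 in the control and at 9.47, 10.12 and 10.66 in the knockout tumours, a difference of 0.41 (95% interval -0.31 to 1.13, limma adjusted p = 0.48). Its other 3 kept probes gave 0.38, 0.29 and 0.21. Gusb, the lysosomal beta-glucuronidase, gave -0.09 by its brightest probe and -0.03 to -0.78 by 3 others, none of which passed.

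Of the other receptors, Stab1, a scavenger receptor of macrophages and sinusoidal endothelium, fell by its brightest probe (ILMN_2544343). It lay at 10.02, 9.26 and 10.53 in the control and at 6.57, 6.68 and 8.45 in the knockout tumours. These values had the order of those of Cemip among control tumours, and knockout 3 was again the highest of its group. The log2 difference was -2.70 (SE 0.53, limma adjusted p = 0.022), while another kept probe gave -0.50 and did not pass. The call was lost without control 1 (limma adjusted p = 0.086), control 3 (0.073) or knockout 2 (0.078), and with no filter (0.10), range over the alternatives 0.0047 to 0.10. Of the 2 measured macrophage markers, Csf1r gave -0.57 and Cd14 2.6, neither called by limma, and 1 passed an unadjusted p of 0.05. Mrc1 was not above background on any array.

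Tlr2, an innate immune receptor reported to respond to hyaluronan fragments, rose. It lay at 7.97, 8.49 and 7.66 in the control and at 9.96, 10.55 and 10.55 in the knockout tumours. Its log2 difference came to 2.31 (SE 0.28, limma adjusted p = 0.0047), and the call held under every alternative tried. Tlr4, its relative, gave 0.02 (limma adjusted p = 0.99). Layn, another hyaluronan receptor, was named after its values were seen. It was below background in all 3 knockout tumours and passed the filter through the control tumours alone. Its control values were 6.08, 5.06 and 7.27, and their mean lay 2.34-fold above the floor of the knockout arrays. The log2 difference was -1.40 (95% interval -2.53 to -0.28), or -0.36 with the authors' values. Its limma adjusted p of 0.12 is a description only.

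Genes that bind or cross-link hyaluronan in the matrix were mostly not measured. Of 16 with a named probe, 10 were not above background on any array, the link protein Hapln1 among them. The 3 measured, Hapln4, Ptx3 and Habp4, gave -0.82, 0.10 and -0.25, and limma called 0 of them, with 0 at an unadjusted p of 0.05. No probe of Itih5 was kept, and Tnfaip6 was not analysed here. Of the 4 genes that tie Cd44 to the cytoskeleton, Msn was the 1 measured and gave -1.10 (limma adjusted p = 0.062), with no overlap between the groups. Its other kept probe gave -0.62 (limma adjusted p = 0.18), and there the groups overlapped. Rdx and Nf2 were not above background on any array and Ezr was not analysed here. Of the versican-cleaving proteases Adamts1, Adamts4 and Adamts9 were measured and limma called 0 of 3, with 1 at an unadjusted p of 0.05. Adamts4, named after its values were seen, gave -1.42 (95% interval -2.65 to -0.20, limma adjusted p = 0.14). Adamts1 gave -0.09 (95% interval -1.18 to 0.99, limma adjusted p = 0.94).

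**Figure D5:**
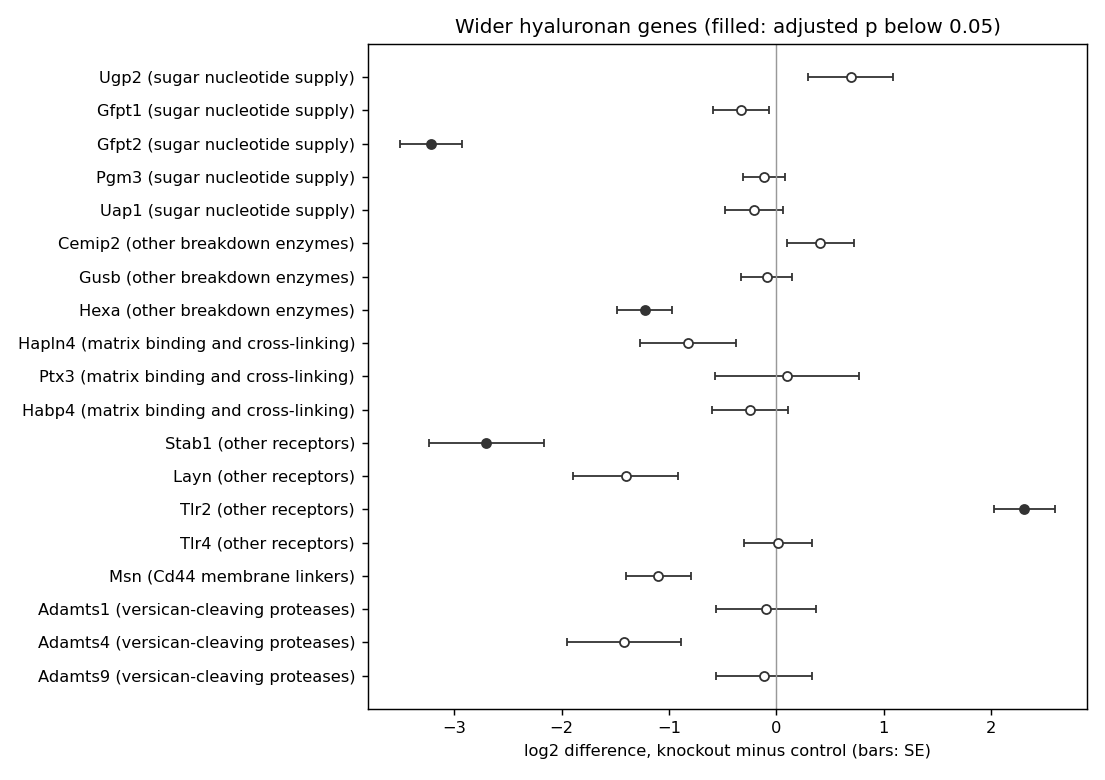
Log2 difference, knockout minus control, of the 19 measured genes of the wider hyaluronan lists, with SE bars. Filled points passed an adjusted p of 0.05, with Gfpt2 (-3.22), Stab1 (-2.70) and Hexa (-1.23) lower and Tlr2 (2.31) higher in the knockout tumours.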

How the data were processed

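RNA of 6 breast tumours, 3 control and 3 knockout by their labels, was made into biotinylated cRNA for Illumina arrays, per the labels' protocols. The authors deposited signal intensity per probe with a detection p-value, not normalized, per the file headers. The table had 4 broken lines, which put other content into a detection column and were left out, leaving 45279 probes. The authors also deposited normalized log2 values. The submitters' processing notes name lumi 2.6.0, with no steps. Each column ranked probes as its array's signals did (Spearman 1), with medians of 7.40 to 7.41. Their centring and exact scale remain unknown. They were used as an alternative only.

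The function neqc of limma 3.58.1 (R 4.3.3) corrected the background, inferred from the detection p-values, added an offset of 16 and put the arrays on a common quantile-normalized log2 scale. The offset compresses changes of dim probes. The filter asked for a detection p under 0.05 on 3 or more arrays and kept 15885 probes. Each probe was tested two-sided with lmFit and eBayes, with Benjamini-Hochberg adjustment over kept probes and calls at 0.05. The test was tested on simulated data. The number of arrays limits the precision.

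Gene symbols are those of the platform annotation, 1 symbol for 34883 probes, several for 18 and none for 10378. By gene number, 34805 probes matched RefSeq's GRCm38.p6 table, which altered 0 symbols. Probes of a gene were not averaged, and lists used the brightest kept probe of a gene. The members, lists, motifs and tests were chosen with earlier results of these data known. Named by rule were all members, up to 4 called genes of each wider list, 8 genes fixed by name, and the 5 genes nearest to Cemip. Marker genes were named as members of their lists. The other genes of the wider lists named above, Msn among them, are outside these rules. The alternatives tried were cyclic loess, the authors' values, an offset of 50, no background correction, no filter, a detection p below 0.01, an intensity trend with a robust prior, the replicate number as a block, each tumour left out, and the mean of a gene's kept probes.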

Additional observations from a re-analysis of the deposited data

How the results depend on the processing

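A case was 1 probe under 1 alternative, with Cemip, which had no test, left out. Of these cases 14 no longer passed and 7 turned sign. The 14 came from Has2, Cd44 ILMN_3114585, Hexa and Stab1 alone. The number of called probes was 1461, 723 with no filter, and 476 to 1564 with each tumour left out in turn. Of the members other than Cemip, 2 probes were called, 1 with no filter and 1 to 2 with a tumour left out. Of the wider lists 4 genes were called, 2 with no filter and 2 to 5 with a tumour left out. Of the markers 9 were called, 4 with no filter and 4 to 9 with a tumour left out. In the main fit limma called 10.1% of the 9354 named genes. With a tumour left out the sign turned for Vcan ILMN_2669627 (-0.47 to 0.016), Vcan ILMN_2865704 (-0.072 to 0.60) and Adamts1 (-0.51 to 0.22). The cause was not tested. The brightest Cemip probe gave -5.63 and the second -0.93 with an offset of 50, and the second -0.69 without background correction.

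The groups share replicate numbers, but the numbers were not found to pair the tumours: deviations from the group means correlated at 0.23, 0.088 and 0.061 for numbers 1, 2 and 3. With the replicate number as a block, 1381 probes, 2 member probes, 4 genes of the wider lists and 10 markers were called. A slide block was not run, since the file headers name no slide. Hmmr, Lyve1, 1 probe each of Has1 and Hyal1 and 2 probes each of Cd44 and Vcan lay below background on all arrays. No change could be measured there.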
